A study of Mus musculus with 6 samples.

Results

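The genes described here are 45 factors of ribosome biogenesis and of the MYC transcription factor network, chosen by symbol from a list drawn up on known function. They are 45 of the 18002 genes listed in the deposited tables, each was found there, and all 45 passed the filter on low counts. These members and the further gene lists below were chosen with earlier results of these data known. RNA was profiled in primary mouse cells labelled as coming from jawbone and described by the study as derived from its periosteum, the cell layer that covers bone. The cells were harvested after 48 h either as aggregates, called spheroids here, or as a flat monolayer, with 3 libraries in each group. Strain, sex and age of the mice, the number of animals and any treatment are not stated in what was at hand. Whether the 3 libraries of a group came from separate cultures is likewise not stated, so p-values measure only the spread between these libraries, which may be technical.

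Ribosomes are built in the nucleolus, where RNA polymerase I transcribes the ribosomal RNA precursor. Small nucleolar ribonucleoproteins (snoRNPs) modify that precursor, and a series of assembly factors cleave it, fold it and join it to ribosomal proteins to give a small and a large subunit. MYC proteins pair with MAX, bind the DNA sequence CACGTG, the E-box, and activate many genes of this machinery, while MXD proteins compete for MAX and repress. Growing cells spend much of their transcription on ribosomes, and biogenesis genes are therefore widely read beside proliferation.

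The E-box was looked for in RefSeq promoter windows (build GRCm38.p6) of 300 bases, from 250 bases before to 50 bases after each annotated start site. The search used the letters CACGTG, which read the same on both strands. Such a window was at hand for 38 members, and 10 of them (26.3%) held the motif, compared with 10.3% of the 14179 listed genes with a window. The motif was found in 14.3% of 14 other RNA polymerase I genes, 22.6% of 31 other small subunit processome genes, 18.9% of 37 other large subunit assembly genes and 10.3% of 58 cytosolic ribosomal protein genes. Allowing any letters in the centre (CANNTG) gave 68.4% of members and 70.1% of listed genes. A match is a string of letters in a window and does not show that a factor binds there. The stretches that hold the motif are shown to place it in each member, on the gene's own strand, with the motif in capitals and up to 20 bases on either side within the window.
Max: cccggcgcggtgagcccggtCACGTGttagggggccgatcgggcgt
Mxd4: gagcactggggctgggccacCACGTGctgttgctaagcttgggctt
Mybbp1a: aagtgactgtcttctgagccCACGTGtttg
Utp20: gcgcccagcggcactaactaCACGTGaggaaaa
Wdr43: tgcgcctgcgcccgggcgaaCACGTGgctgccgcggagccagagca
Ltv1: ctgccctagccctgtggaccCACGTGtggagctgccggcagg
Tsr1: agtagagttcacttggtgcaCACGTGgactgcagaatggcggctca
Pes1: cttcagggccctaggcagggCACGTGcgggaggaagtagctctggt
Nle1: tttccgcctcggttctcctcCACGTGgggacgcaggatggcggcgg
Nop2: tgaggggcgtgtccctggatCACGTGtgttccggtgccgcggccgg

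In 7 of these 10 genes the motif began downstream of the annotated start. It began at position 3 from the start in Pes1 (chr11:3963957-3964002, plus strand), 18 in Wdr43 (chr17:71616212-71616257, plus strand), 24 in Nle1 (chr11:82908347-82908392, minus strand) and 25 in Tsr1 (chr11:74898084-74898129, plus strand). It began at position 29 in Ltv1 (chr10:13193088-13193129, minus strand), 38 in Utp20 (chr10:88826765-88826797, minus strand) and 41 in Mybbp1a (chr11:72441347-72441376, plus strand). The other members held it upstream, at -3 in Max (chr12:76962226-76962271, minus strand), -60 in Nop2 (chr6:125131803-125131848, plus strand) and -219 in Mxd4 (chr5:34187904-34187949, minus strand). All 10 were lower in spheroids by the test described below, with a median log2 fold change of -0.35. The 28 members whose windows lacked the motif had a median of -0.37, with 21 lower and 4 higher. For the 7 members with no window at hand the median was -0.43, with 6 lower and 0 higher. Among all 45 members 82.2% were lower, compared with 37.1% of all tested genes. Whether the motif bears on the change was not tested. The whole windows of Nop2, which holds the motif, and of Nop56, which had the largest fall among members with a window and lacks it, are given as examples.
Nop2 (chr6:125131633-125131932, plus strand): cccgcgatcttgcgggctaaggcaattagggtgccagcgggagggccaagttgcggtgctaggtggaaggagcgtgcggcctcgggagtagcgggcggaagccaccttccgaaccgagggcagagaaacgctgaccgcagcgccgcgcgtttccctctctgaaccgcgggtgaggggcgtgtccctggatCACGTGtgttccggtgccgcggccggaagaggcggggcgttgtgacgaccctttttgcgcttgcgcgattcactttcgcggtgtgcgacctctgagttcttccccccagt
Nop56 (chr2:130274162-130274461, plus strand): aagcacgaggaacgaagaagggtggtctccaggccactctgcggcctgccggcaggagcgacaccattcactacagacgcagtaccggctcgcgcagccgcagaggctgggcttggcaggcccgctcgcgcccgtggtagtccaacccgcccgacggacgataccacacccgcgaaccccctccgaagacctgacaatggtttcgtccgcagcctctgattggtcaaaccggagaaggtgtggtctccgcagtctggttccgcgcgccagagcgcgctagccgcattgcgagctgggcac

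Most ribosome biogenesis genes were lower in spheroids, by small amounts. In edgeR's quasi-likelihood test with Benjamini-Hochberg adjustment over all 13708 tested genes, 37 of the 45 members were lower, 4 were higher and 4 did not pass an adjusted p of 0.05. Over all tested genes 37.1% were lower and 37.1% higher, against 82.2% and 8.89% of members. The median log2 fold change was -0.38 over the members and -0.00 over all tested genes. The changes were modest in size, since only 9 members (20%) were lower by at least 1.5-fold, where the background was 12.8%, and 2 were higher by that much, where the background was 19.0%. CPM values (reads scaled to a common library size, with TMM factors) did not overlap between the groups for 42 of the 45 members, compared with 75.8% of all tested genes.

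**Figure D1:**
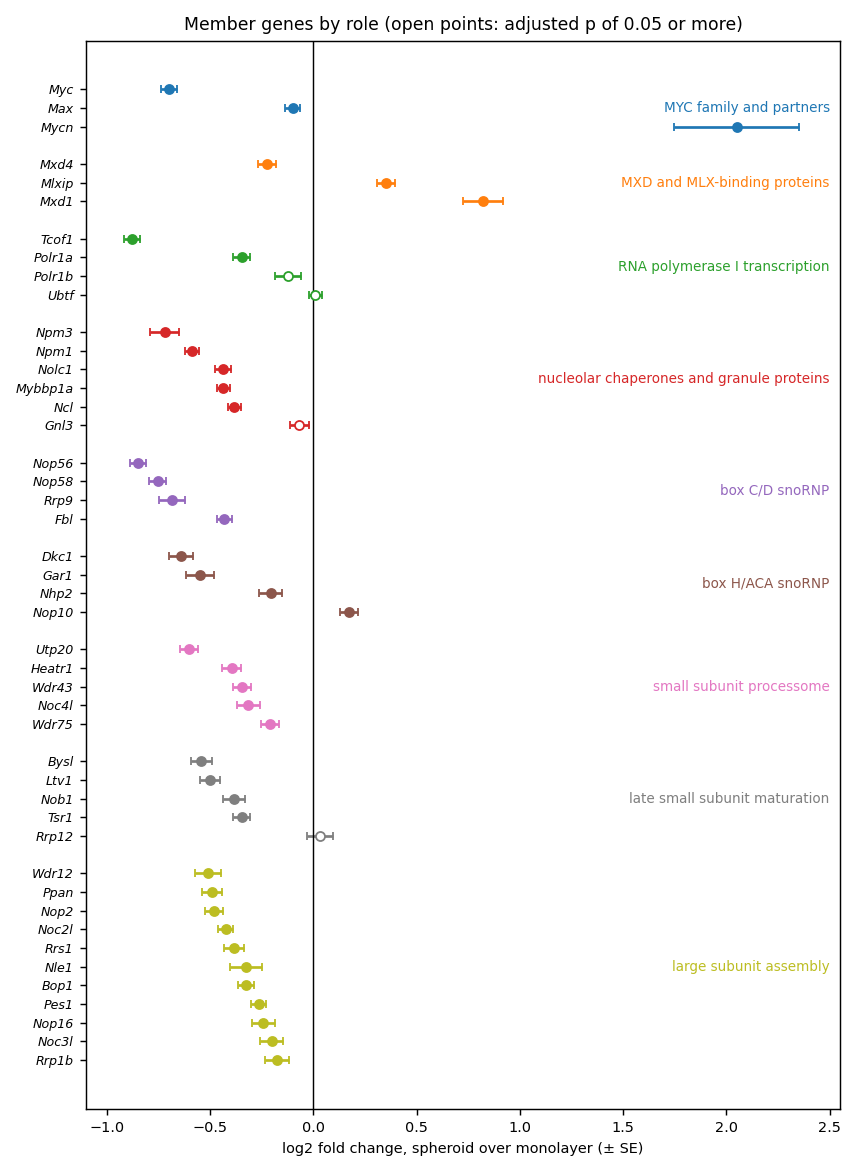
Log2 fold change of spheroid over monolayer for each of the 45 members, grouped by role, with SE bars from edgeR and open points for genes that did not pass an adjusted p of 0.05. Most points of the nucleolar groups lie between -0.88 and -0.18, and Mycn, Mxd1, Mlxip and Nop10 are the filled points to the right of 0.

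Of the 39 biogenesis members 34 fell, 1 rose and 4 did not pass, where 37.1% of all tested genes fell and 37.1% rose. The summed level of these 39 members was 3265, 3284 and 3279 CPM in the monolayers and 2388, 2431 and 2474 CPM in the spheroids. The spheroid sum was thus 74.2% of the monolayer sum, and the groups lay far apart relative to their SDs of 9.55 and 42.9 CPM. Npm1 and Ncl together made up 36.2% of the monolayer sum, so the sum follows them closely. The 34 genes that fell did so by between 1.13-fold and 1.84-fold. In such bulk RNA, fewer growing cells and less of these mRNAs per cell cannot be told apart.

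Markers of other cell types and of proliferation moved in the same libraries. The counts below stand beside 37.1% higher and 37.1% lower over all tested genes. Proliferation genes fell in 24 of 24 cases (median -1.40 in log2), and their summed level went from between 1540 and 1562 CPM in monolayers to between 604 and 638 CPM in spheroids. Markers of skeletal muscle rose in 10 of 10 tested cases, with sums from 68.2 to 69.8 CPM in monolayers and from 1367 to 1464 CPM in spheroids. Endothelial markers rose in 12 of 12 cases, with sums from 71.6 to 72.5 CPM against 401 to 419 CPM. Macrophage markers rose in 10 of 11 tested cases (35.8 to 39.7 CPM against 162 to 169 CPM), osteoclast markers in 5 of 5 (180 to 184 CPM against 738 to 748 CPM) and Schwann cell markers in 6 of 6 (20.03 to 22.2 CPM against 94.5 to 97.5 CPM). Dcstamp was at 0 in the monolayers. Of 7 epithelial markers 1 was tested and rose (Trp63), the sums were 0.601 to 1.01 CPM against 3.04 to 4.21 CPM, and Krt8 and Krt14 were at 0 in all 6 libraries. Markers listed for periosteal mesenchyme were abundant in both groups, with a sum of 62795 to 64226 CPM in monolayers and 44161 to 46539 CPM in spheroids, and 6 of 10 rose while 4 fell. The part of these cell types and of proliferation in the results below was not tested.

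Of the 6 MYC network members 3 were lower and 3 higher, where 37.1% of all tested genes were lower and 37.1% higher. Myc (gene ID 17869, chr15:61985341-61990361, GRCm38.p6), the family member that drives growth in most cell types, had 83.3, 77.4 and 81.2 CPM in the monolayers and 50.8, 50.2 and 48.0 CPM in the spheroids. All 3 spheroid libraries lay below all monolayers, a fall to 0.616-fold (log2 fold change -0.70 ± 0.04 SE, adjusted p = 2e-16). Mycn (gene ID 18109, chr12:12936093-12941836), its relative best known from embryonic and neural tissue, had 0.232, 0.463 and 0.553 CPM in the monolayers and 1.77, 1.33 and 2.13 CPM in the spheroids. It rose by 2.05 ± 0.30 on the log2 scale (adjusted p = 3.6e-07), from 27 reads in all monolayers to 115 in all spheroids, so its fold is imprecise. In FPKM, which divides reads by gene length and depth and so allows a comparison between genes, Mycn stayed the rarer of the pair, at 0.163 ± 0.0666 FPKM in monolayers and 0.693 ± 0.166 FPKM in spheroids (SD, n = 3), compared with 33.9 ± 1.23 and 21.4 ± 0.634 FPKM for Myc. The FPKM of Myc was 388, 181 and 156 times that of Mycn in the monolayers and 30.9, 41.3 and 24.4 times in the spheroids. The highest of these ratios rests on 5 Mycn reads in monolayer 1.

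Max, the obligate partner of the family, had 90.7, 89.2 and 87.3 CPM in monolayers and 83.7, 84.0 and 81.5 CPM in spheroids. The libraries did not overlap, but the log2 fold change was only -0.10 ± 0.04 (adjusted p = 0.0107), and the call was lost with scaling by library totals (adjusted p = 0.0827), with DESeq2 (0.0502) and on FPKM (0.169 and 0.172). The ratio of Max to Myc in FPKM was 1.34, 1.43 and 1.36 in the monolayers and 2.09, 2.10 and 2.16 in the spheroids, so relatively more Max mRNA per Myc mRNA was measured in every spheroid library. Mxd1, a repressor that takes MAX from MYC, had 5.39, 6.48 and 6.32 CPM in monolayers and 10.2, 10.8 and 11.2 CPM in spheroids. It rose 1.77-fold (log2 fold change 0.82 ± 0.09, adjusted p = 3.39e-09), with no overlap between the groups. Myc was 26.3 ± 3.61 times as abundant as Mxd1 in FPKM in monolayers and 9.13 ± 0.678 times in spheroids.

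Mxd4, a further MXD repressor, went the other way, from 55.5, 55.7 and 57.1 CPM to 46.0, 50.5 and 47.6 CPM (log2 fold change -0.23 ± 0.04, adjusted p = 2.16e-05). Mlxip, which encodes the glucose-sensing MondoA protein that pairs with MLX, had 53.1, 52.7 and 56.4 CPM in monolayers and 71.9, 69.9 and 65.2 CPM in spheroids, a rise of 0.35 ± 0.04 on the log2 scale. Genes on the opposite strand share 514 exon bases with Mxd4 and 267 with Mlxip in the GENCODE annotation, and reads of such pairs cannot be told apart where strand is not used. Mxd1 and Mxd4 thus moved in opposite directions.

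**Figure D2:**
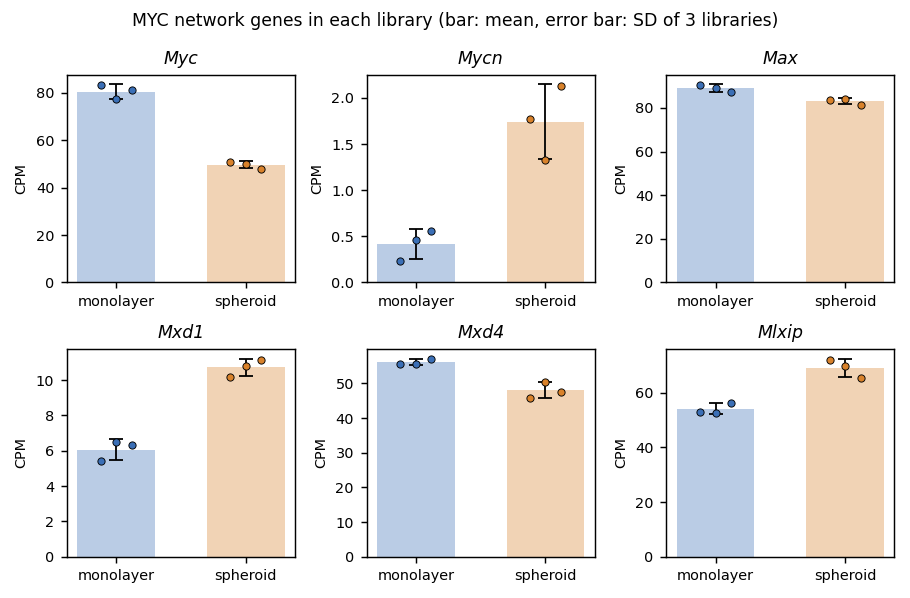
CPM of the 6 MYC network members, with 1 point per library, bars for the mean and error bars for the SD of 3 libraries in each group. Myc, Max and Mxd4 have lower spheroid bars, and Mycn, Mxd1 and Mlxip higher ones, while the Mycn axis ends near 2 CPM.

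Of 20 further network genes 6 rose (30%), 7 fell (35%) and 7 did not pass, near the 37.1% higher and 37.1% lower of all tested genes. Their median log2 fold change was 0.04. The largest rises were in Usp28, a deubiquitinase that stabilises MYC protein, at 1.05 ± 0.07, and Mnt, a MAX-binding repressor, at 0.63 ± 0.04. Mxd3 at -1.74 ± 0.11 and Aurka, the mitotic kinase that stabilises MYCN protein, at -1.37 ± 0.07 fell most. Aurka is also a cell cycle gene, and the proliferation list fell in the same libraries.

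Genes of RNA polymerase I transcription, the first step of the pathway, did not move evenly. Tcof1, which encodes the nucleolar protein treacle, had 88.6, 87.6 and 89.5 CPM in the monolayers and 48.4, 47.8 and 48.2 CPM in the spheroids. This was the largest fall of any member (1.84-fold, log2 fold change -0.88 ± 0.04, adjusted p = 6.21e-20), and the libraries of each group lay within 2 CPM of each other. Polr1a, the largest catalytic subunit, went from 62.8, 64.1 and 67.7 CPM to 51.6, 50.5 and 50.7 CPM (-0.35 ± 0.04). Polr1b, its catalytic partner, had 20.4, 20.5 and 21.3 CPM against 17.4, 19.99 and 19.7 CPM and did not pass (-0.12 ± 0.06, adjusted p = 0.0867). Ubtf, the factor that opens ribosomal DNA for the polymerase, had 131, 128 and 130 CPM in monolayers and 132, 130 and 130 CPM in spheroids, with overlapping groups (log2 fold change 0.01 ± 0.03, adjusted p = 0.801). Its level was also the higher per length, at 3.72 ± 0.187 times that of Polr1a in monolayers and 4.47 ± 0.0473 times in spheroids.

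Against 37.1% lower and 37.1% higher over all tested genes, 9 of 14 further polymerase I genes fell, 2 rose and 3 did not pass. Their median was -0.26. The subunit genes Twistnb and Cd3eap fell most, by log2 fold changes of -0.51 ± 0.08 and -0.50 ± 0.06, and Baz2a, a subunit of the complex that silences ribosomal DNA, rose by 0.43 ± 0.04. The other riser, Ttf1, a transcription termination factor gene named here after its value was seen, stood at 0.22 ± 0.08 (adjusted p = 0.019) with overlapping groups. The count of higher genes was 1 without monolayer replicate 1 or without spheroid replicate 3.

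**Figure D3:**
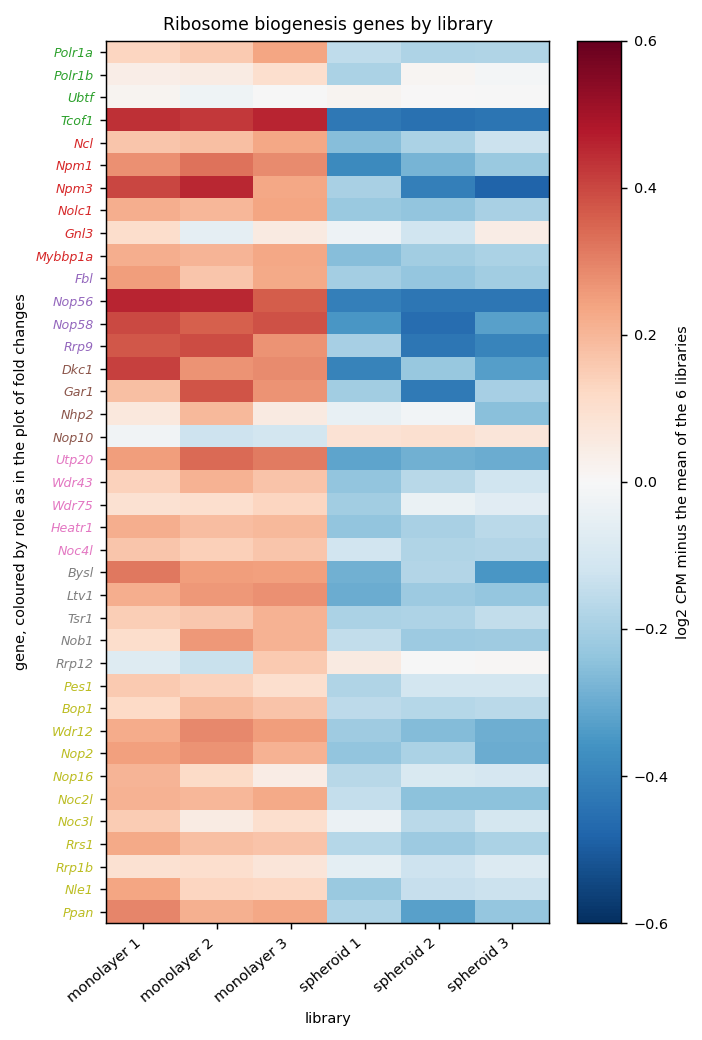
Log2 CPM of the 39 biogenesis members in each library, centred on the mean of the 6 libraries of that gene, with gene names coloured by role. Red cells fill the monolayer columns and blue cells the spheroid columns, with Nop10 reversed and Ubtf, Gnl3 and Rrp12 without a clear split.

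The mRNAs of nucleolar chaperones and granule proteins fell for 5 of 6 members, and 1 did not pass, where 37.1% of all tested genes fell. Npm1 (gene ID 18148, chr11:33152498-33164142), the nucleolar chaperone nucleophosmin, had 740, 768 and 745 CPM in monolayers and 470, 504 and 525 CPM in spheroids (a log2 difference of -0.59 ± 0.03, adjusted p = 2.19e-15). It was also the most abundant member per length, at 555 ± 11.8 FPKM in monolayers and 378 ± 20.04 FPKM in spheroids, although processed copies of Npm1 in the genome can share its reads. Npm3, a histone chaperone of the same family, fell from 39.8, 41.3 and 35.4 CPM to 26.4, 22.7 and 21.6 CPM (-0.72 ± 0.07). Ncl, which encodes nucleolin, had 426, 431 and 446 CPM against 319, 333 and 347 CPM (-0.38 ± 0.03). Every spheroid library lay below every monolayer library for these 3 genes, as for 37.8% of all tested genes.

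Nolc1, a chaperone of snoRNPs, and Mybbp1a, a nucleolar partner of MYB, both fell by a log2 fold change of -0.44, with SEs of 0.04 and 0.03. Gnl3, the GTPase nucleostemin of dividing and stem cells, had 58.1, 51.9 and 56.0 CPM in monolayers and 52.9, 49.7 and 55.8 CPM in spheroids. Its groups overlapped and it did not pass (-0.07 ± 0.05, adjusted p = 0.193).

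The snoRNPs that modify ribosomal RNA held partners of 1 complex with unlike changes. All 4 members of the box C/D snoRNPs, a class best known for methylation of ribose, fell, compared with 37.1% of all tested genes. Nop56 (gene ID 67134, chr2:130274367-130279313), a core scaffold, had 100.5, 100.05 and 94.1 CPM in monolayers, and its spheroid libraries stood at 54.9, 54.2 and 54.2 CPM (log2 fold change -0.85 ± 0.04, adjusted p = 2.09e-19). Nop58, the other scaffold, went from 81.6, 79.5 and 80.9 CPM to 48.7, 45.2 and 49.5 CPM (-0.75 ± 0.04), and Rrp9, a protein of the U3 particle, from 29.5, 30.0 and 27.5 CPM to 19.9, 16.9 and 17.3 CPM (-0.69 ± 0.06). Fbl, the methyltransferase fibrillarin, fell from 84.0, 79.3 and 82.6 CPM to 61.2, 60.02 and 61.1 CPM (-0.43 ± 0.04). In FPKM, Nop58 stood at 0.796 ± 0.0340 of Nop56 in monolayers and at 0.844 ± 0.0370 in spheroids, with overlapping libraries. The ratio of Fbl to Nop56 was 1.39, 1.32 and 1.48 in monolayers and 1.85, 1.85 and 1.89 in spheroids, with no overlap between groups.

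Of the 4 box H/ACA members, which serve pseudouridylation and telomerase, 3 fell and 1 rose. The shares over all tested genes were 37.1% lower and 37.1% higher. Dkc1 (gene ID 245474), the pseudouridine synthase dyskerin, had 33.9, 30.8 and 31.0 CPM in monolayers and 19.3, 21.8 and 20.3 CPM in spheroids (a log2 difference of -0.64 ± 0.06, adjusted p = 2.15e-11). Gar1 fell by -0.55 ± 0.07 on that scale, from 21.8, 25.02 and 23.2 CPM to 16.7, 14.4 and 16.8 CPM, and Nhp2 by -0.21 ± 0.06, from 40.5, 44.4 and 40.2 CPM to 37.5, 38.3 and 32.5 CPM. Nop10 (gene ID 66181, chr2:112261926-112262898), the smallest subunit, had 44.2, 41.2 and 41.6 CPM in monolayers and 47.7, 48.0 and 47.3 CPM in spheroids. It was the only biogenesis member that passed the test as higher (0.17 ± 0.04, adjusted p = 0.000783). The level of Nop10 per length was 5.27, 5.02 and 5.02 times that of Dkc1 in the monolayers and 9.48, 8.88 and 9.13 times in the spheroids. The mRNAs of these partners therefore stood in a different ratio in the cultures, and the ratio of Nhp2 to Dkc1 moved likewise, from 3.61 ± 0.234 to 4.99 ± 0.431. Gar1 stood at 1.59 ± 0.127 and 1.73 ± 0.206 times Dkc1, and there the libraries of the groups overlapped.

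Small subunit assembly members fell in 9 of 10 cases, where 37.1% of all tested genes were lower. Of the processome, the large particle that folds and cuts the precursor, Utp20 fell most, from 54.6, 58.0 and 57.0 CPM to 36.9, 37.6 and 37.3 CPM (log2 fold change -0.60 ± 0.04, adjusted p = 4.62e-14). Heatr1 stood at -0.40 ± 0.05, Wdr43 at -0.35 ± 0.04, Noc4l at -0.32 ± 0.06 and Wdr75 at -0.21 ± 0.04, all with separate groups. Separate groups were also seen for 75.8% of all tested genes. Of the late factors that act on the way to the cytoplasm, Bysl went from 46.0, 44.0 and 43.8 CPM to 30.2, 32.7 and 29.0 CPM (-0.54 ± 0.05). Ltv1, an export adaptor, stood at -0.50 ± 0.05, Nob1, the endonuclease of the last cut, at -0.39 ± 0.05, and Tsr1 at -0.35 ± 0.04. Rrp12, an export factor, had 24.6, 23.6 and 28.9 CPM in monolayers and 26.97, 25.9 and 26.1 CPM in spheroids and did not pass (0.03 ± 0.06, adjusted p = 0.654).

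Opposite-strand genes limit some of these values. Exons of Tsr1 share 1240 bases with Srr, measured at 37.3 ± 0.489 CPM in monolayers against 36.2 ± 0.0829 CPM in spheroids, and exons of Bysl share 361 bases with Ccnd3, at 125 ± 3.86 and 134 ± 2.39 CPM. Srr did not pass at a log2 fold change of -0.04, and Ccnd3 rose by 0.09. Noc2l shares 598 exon bases with Samd11, which was below 1 CPM on average in both groups. These are the tested partners with at least 200 shared bases. In all, 20 members share exon bases with a gene on the opposite strand, and of the 12 partners tested 3 fell, 5 rose and 4 did not pass. The partners that fell share fewer bases, 20 for Rrp9 with Parp3 (-0.53, from 174 to 121 CPM), 45 for Dkc1 with Mpp1 (-0.39, from 57.3 to 43.8 CPM) and 15 for Gnl3 with Pbrm1 (-0.18, from 89.4 to 78.8 CPM). The part of shared reads in the members' values was not tested.

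Large subunit assembly members were lower in 11 of 11 cases, by 1.13-fold to 1.42-fold, with no overlap between the groups. Over all tested genes 37.1% were lower, and the groups did not overlap for 75.8%. Pes1, Bop1 and Wdr12 form the PeBoW complex, which large subunit precursors need. Pes1 went from 99.3, 98.1 and 95.4 CPM to 78.7, 82.5 and 82.6 CPM (log2 fold change -0.26 ± 0.04), Bop1 from 60.7, 63.9 and 62.7 CPM to 49.99, 49.6 and 49.9 CPM (-0.33 ± 0.04), and Wdr12 from 23.2, 24.3 and 23.7 CPM to 17.2, 16.6 and 16.2 CPM (-0.51 ± 0.06, adjusted p = 7.53e-09). In FPKM, Bop1 was 0.758 ± 0.0299 of Pes1 in monolayers and 0.727 ± 0.0222 in spheroids, with overlapping libraries, and Wdr12 was 0.229 ± 0.00785 and 0.189 ± 0.0120 of Pes1, without overlap. Ppan stood at -0.49 ± 0.05, the methyltransferase gene Nop2 at -0.48 ± 0.04, Noc2l at -0.42 ± 0.04 and its relative Noc3l at -0.20 ± 0.06. Rrs1 stood at -0.39 ± 0.05, Nle1 at -0.33 ± 0.08, Nop16 at -0.24 ± 0.05 and Rrp1b at -0.18 ± 0.06. The calls of the last pair are the least firm. Rrp1b had an adjusted p of 0.0502 with DESeq2, and Nop16 had 19.1 ± 1.61 FPKM in monolayers and 19.0 ± 0.533 FPKM in spheroids, with an adjusted p of 0.955 in limma on log2(FPKM + 1).

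**Figure D4:**
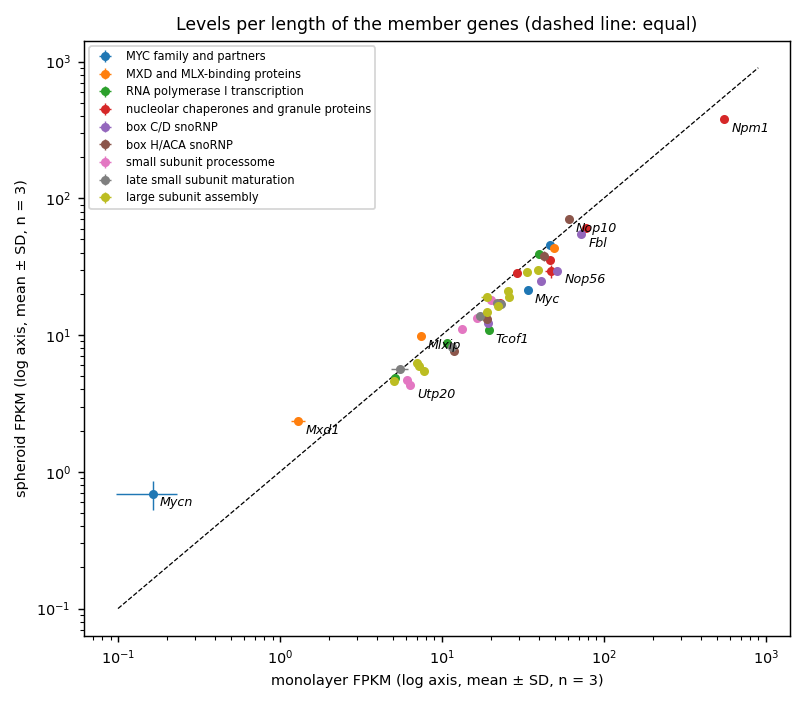
Mean FPKM of each member in spheroids against monolayers on log axes, with bars for the SD of 3 libraries and a dashed line of equal levels. Npm1 lies at the top with 555 FPKM in monolayers, Mycn at the bottom with 0.163 FPKM, and most biogenesis members lie just under the line.

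Levels per length spanned a wide range among the biogenesis members. In monolayers they ran from 5.10 FPKM for Rrp1b to 555 FPKM for Npm1, with a median of 20.2 FPKM, and in spheroids from 4.29 FPKM for Utp20 to 378 FPKM for Npm1, with a median of 16.8 FPKM. Ncl at 77.6 ± 2.40 FPKM, Fbl at 72.3 ± 2.21 FPKM and Nop10 at 60.7 ± 2.19 FPKM followed Npm1 in monolayers. In spheroids Nop10, at 70.0 ± 0.486 FPKM, ranked above Ncl at 60.4 ± 2.40 FPKM and Fbl at 54.9 ± 0.918 FPKM.

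Several members carry snoRNA genes in their own bodies, so that splicing of the host also frees the guide RNA. GENCODE places 23 snoRNA genes on the same strand within 8 of the 45 members (17.8%), compared with 1.503% of 17028 listed protein-coding genes. The hosts are Ncl, Gnl3, Nop56, Nop58, Dkc1, Wdr43, Tsr1 and Ppan, and 7 of these 8 fell, Gnl3 being the one that did not pass. Of all 39 biogenesis members 34 fell (87.2%), so the share of hosts that fell was near that of the whole group. Over all tested genes 37.1% were lower. The snoRNAs themselves were not analysed here.

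Other genes of the pathway, from lists that leave out the members, were lower more often than higher. Over all tested genes 37.1% were lower and 37.1% higher. Of 39 further small subunit processome and maturation genes 30 fell and 2 rose, with a median log2 fold change of -0.22. Nol7 fell most (-0.66 ± 0.06), followed by Nol10 (-0.58 ± 0.06). Imp3, a U3 particle protein, rose by 0.20 ± 0.05 and the kinase gene Riok2 by 0.17 ± 0.05, and Riok2 lost its call without spheroid replicate 3 (adjusted p = 0.0544). Of 45 further large subunit assembly genes 35 fell and 2 rose, with a median of -0.26. Mrto4 (-0.51 ± 0.06) and the helicase gene Ddx56 (-0.48 ± 0.05) fell most. Gnl2, a nucleolar GTPase, rose by 0.66 ± 0.04, and Rrp1, the paralog of Rrp1b, rose by 0.29 ± 0.03.

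Cytosolic ribosomal protein genes, whose products the biogenesis factors assemble, were lower in 77 of 79 cases and higher in none. Their median was -0.47, and their summed level in spheroids was 70.2% of that in monolayers. For comparison, 37.1% of all tested genes were lower and 37.1% higher. Rpsa (-0.81 ± 0.03) and Rps2 (-0.81 ± 0.03) fell most, while Rps27 (-0.06, adjusted p = 0.481) and Rpl23 (-0.27, adjusted p = 0.112) did not pass. Reads of ribosomal protein genes can be shared with their many processed copies, so single values are uncertain.

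MYC-induced genes of growth and metabolism outside the ribosome were lower in 40 of 40 cases. The median was -0.51, with a summed spheroid level of 67.9% of the monolayer level. Slc7a5, a transporter of large amino acids, fell from 242.5 to 71.0 CPM (log2 fold change -1.77 ± 0.03), and Mthfd2, a mitochondrial folate enzyme, fell from 122 to 37.3 CPM (-1.71 ± 0.04). Both are also known targets of ATF4, and the list holds the cell cycle genes Cdk4 and Ccnd2 as well. Of 6 genes that MYC is known to repress, 3 rose and 3 fell, where 37.1% of all tested genes were higher and 37.1% lower. Ndrg2 rose by 3.09 ± 0.07 and Gadd45a, a stress-induced growth arrest gene, by 2.27 ± 0.04, against Ndrg1 at -1.06 ± 0.04 and Cdkn2b, a CDK inhibitor gene, at -0.88 ± 0.04.

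The proliferation list had a lower median, -1.40, than each ribosome list, and its summed spheroid level was 40.2% of the monolayer level. Tpx2 (-1.71 ± 0.04) and Ccna2 (-1.63 ± 0.04) fell most.

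**Figure D5:**
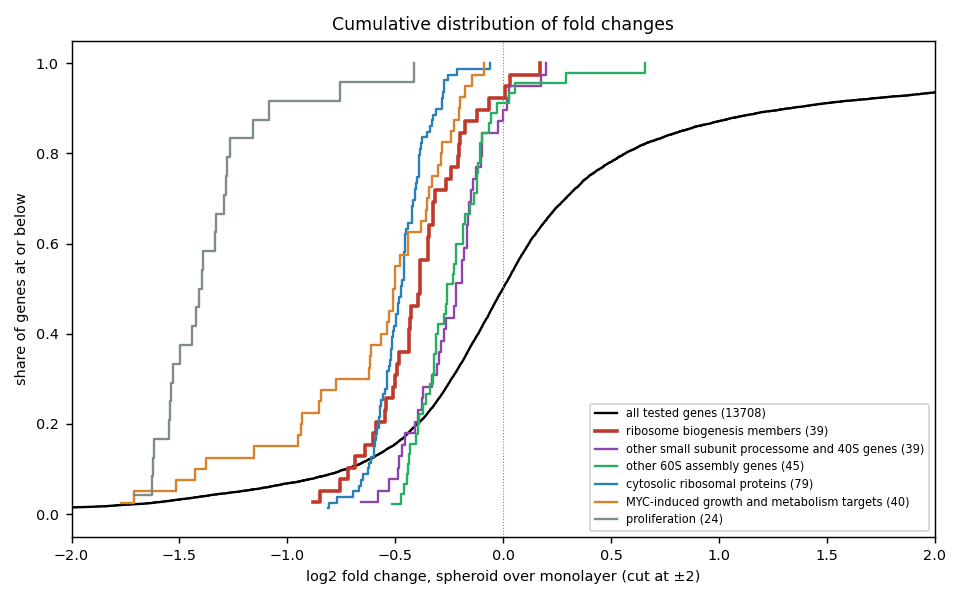
Cumulative share of genes by log2 fold change for all 13708 tested genes, the 39 biogenesis members and further lists, with the number of genes in brackets. The curves of the ribosome lists lie left of 0 around medians of -0.22 to -0.47, steeper than that of all genes, and the proliferation curve crosses its median at -1.40.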

How the data were processed

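Total RNA of 6 libraries was sequenced on the DNBSEQ platform, per the labels' protocols. The submitters' processing notes name HISAT and the build GRCm38.p6. What counted the reads, on which annotation and with what use of strand was not stated in what was at hand. The authors' deposited values are expected counts, which hold decimals for part of the genes, and FPKM, which divides by gene length and depth. Library totals ranged from 21701000 to 21889100 reads, rounded to 6 digits.

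Counts were rounded, filtered with filterByExpr (minimum count 10, 13708 genes left) and scaled with TMM factors before robust quasi-likelihood fits in edgeR 4.0.16 under R 4.3.3. SEs come from the F statistic and cover the spread between libraries. Counts had decimals in every library for 12 members. Replicate pairs differed by 1.90 to 2.91 times counting noise (chi-square ratio), so none was a copy. Gene coordinates and promoters are RefSeq GRCm38.p6, matched by gene ID for 17948 of 18002 genes; gene overlaps and snoRNAs are GENCODE M21 on GRCm38. Scripts were tested on simulated data. Alternatives were other scalings and filters, DESeq2 1.42.0, limma 3.58.1 (voom, and on log2 of FPKM plus 1 or 0.1), a replicate block, a threshold of 0.01 and leaving out each library. The members, lists and rule for named genes (all members, and in each list the 2 largest rises and 2 largest falls that passed with no overlap) were chosen with earlier results of these data known. The 1.5-fold rule and the alternatives for genes named from further lists were added after seeing the data.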

Additional observations from a re-analysis of the deposited data

How the results depend on the processing

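The 4 higher members kept that count under every alternative run at the 0.05 or 0.01 threshold, and the count of lower members ranged from 35 to 37 (37 whichever library was left out). The median of the members was -0.38, and was -0.35 with library totals, -0.31 and -0.35 on log2(FPKM + 1) and log2(FPKM + 0.1), and -0.38 to -0.36 leaving out 1 library. Scaling moved the median of all genes by at most 0.03. Among members, Ubtf, which did not pass, had log2 fold changes of -0.0076 with upper quartile factors, -0.00077 with no filter, and -0.0329 and -0.0337 on the FPKM scales with 1 and 0.1 added. Rrp12, which did not pass either, ranged from -0.0247 to 0.124 leaving out 1 library and was below 0 without monolayer replicate 1 or 2. The calls of Max, Nop16 and Rrp1b were lost as stated above, that of Max also at 0.01; the causes were not tested. Higher polymerase I genes numbered 1 with DESeq2 and 1 at 0.01, and 1 to 3 leaving out 1 library. Higher small subunit genes numbered 1 to 2 leaving out 1 library. The 1 higher exosome gene became 0 with DESeq2 and at 0.01, and was 0 to 1 leaving out 1 library. Requiring 1.5-fold gave 2606 higher and 1748 lower genes in all, 2 and 9 members, 3 and 3 other network genes, 15 lower MYC-induced genes, 0 and 0 polymerase I genes, 0 and 1 small subunit genes, 1 and 0 large subunit genes, 0 and 2 exosome genes and 15 lower ribosomal protein genes. The E-box in any form (CANNTG) was found in 26 members in place of 10. The replicate block gave 37 lower and 4 higher members and 5120 higher and 5118 lower genes in all. Deviations of same-numbered libraries from their group means correlated at -0.05, 0.07 and 0.06. Those of differently numbered libraries correlated at -0.126 to 0.063. With 3 libraries in each group, these values cannot show whether the numbers pair the libraries. At a median of 3.23% variation between libraries, small changes pass the test, and low counts limit only Mycn among members.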

Other observations

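The RNA exosome is the nuclease complex that trims ribosomal RNA precursors and degrades their by-products. Of its 13 genes 8 were lower in spheroids and 1 was higher, where 37.1% of all tested genes were lower and 37.1% higher. The 13 genes had a median log2 fold change of -0.28. Dis3, a catalytic subunit, fell from 39.4 to 20.4 CPM (-0.95 ± 0.05) and the cofactor gene Mphosph6 from 15.8 to 10.003 CPM (-0.66 ± 0.08). Exosc6, a core ring subunit, went from 10.4 to 11.9 CPM (0.20 ± 0.08, adjusted p = 0.0219 in edgeR's quasi-likelihood test). Leaving out monolayer 2, monolayer 3, spheroid 1 or spheroid 2 ended that call (adjusted p from 0.0511 to 0.0837), as did DESeq2 (0.113).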
